A study of Sus scrofa with 6 samples.

Results

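Unannotated lncRNA loci with a genomic span of at least 5 kb were examined in pig skin. The span is the distance from the first to the last base of a locus on the genome, introns included, so it is not the length of the RNA. Of the 7566 rows of the lncRNA table, 64 were listed as known and 7502 as assembled without a known counterpart, called unannotated here. The 13 unannotated rows on chromosome Y were left out, 1 of which was long enough. This left 1495 long rows among 7489 unannotated rows (19.96%), with 5994 shorter rows to compare them with. From this table, the rows were chosen by span and annotation alone. The table itself held only rows that had passed an expression limit in at least 1 sample.

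RNA was taken from 3 female Bama pigs aged 2 years, each of which gave back skin, which was white, and buttock skin, which was black, cut to a depth of 8 mm. This gave 3 samples of each skin (n = 3), and the pigs are numbered 1 to 3 as read from the sample names. The Bama pig carries black hair and skin at both ends of the body and white skin between them, and the groups carry no treatment or engineered allele. Skin color and body site changed together in every comparison, so their effects cannot be told apart.

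Long noncoding RNAs are transcripts without a recognizable protein product. Some act on the gene next to them, some act as scaffolds for proteins elsewhere in the cell, and for many no function is known. Most are expressed at a lower level and in fewer cell types than mRNAs. A transcript that is spliced across large introns covers a long span on the genome and is therefore likely to overlap other genes, in sense or in antisense.

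Skin markers were read from the mRNA table. Fibroblast genes such as DCN and COL3A1 and the keratinocyte gene KRT1 were present in all 6 samples. Of 5 melanocyte markers, 5 were lower in white skin, with a summed FPKM of 0.298 to 1.23 in white and 28.5 to 159.4 in black samples. All 5 adipocyte markers were also lower in white skin, where they summed to 127.6 to 481.1 FPKM, against 785.2 to 1803 in black skin. Both measured endothelial markers were lower in white skin, with sums of 24.0 to 29.2 against 64.7 to 133.3 FPKM. Of 5 fibroblast markers 1 was called lower in white skin, and 2 with the pig as a block (COL1A2, limma, Benjamini-Hochberg adjusted p = 0.0559 without and 0.0315 with the block), with sums of 2244 to 4805 against 5888 to 10265 FPKM, and of 3 measured keratinocyte markers none was called, with sums of 380.5 to 1008 against 759.9 to 1184 FPKM. The muscle enzyme gene CKM, 1 of 2 measured muscle markers, was higher in white skin, at 46.7 against 2.78 FPKM on average. These calls came from limma with the Benjamini-Hochberg adjusted p below 0.05. Markers of several cell types thus moved with the skins, and their part in the differences of the long rows was not tested. In bulk samples, fewer cells of a type and less RNA per cell cannot be told apart.

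The long rows spanned 5008 to 794617 bp, with a median of 17389 bp and a middle range of 8580.5 to 43696.5 bp (first to last quartile). There were 479 rows of 5 to 10 kb, 341 of 10 to 20 kb, 356 of 20 to 50 kb, 179 of 50 to 100 kb and 140 of 100 kb or more. The shorter rows had a median span of 294 bp, and 2146 of them (35.8%) spanned fewer than 200 bp, under the length by which lncRNAs are usually defined. The rows just inside the limit were TCONS_00072510 (5008 bp) and the pair TCONS_00104845 and TCONS_00104846 (5018 bp each). TCONS_00072510 was at 0.565 FPKM in the white sample of pig 3 and at 0 elsewhere. TCONS_00104845, inside SORCS2, was at 1.23, 2.02 and 1.17 FPKM in white and 0.0662, 0.351 and 0.0846 in black skin, while TCONS_00104846 was at 0.947 in the white sample of pig 1 and at 0 elsewhere. The rows just outside the limit were TCONS_00055701, TCONS_00069673 and TCONS_00023405, which spanned 4996, 4986 and 4985 bp and had mean levels of 3.43, 0.104 and 0.164 FPKM. Among the long rows, 738 lay on the plus and 757 on the minus strand. Their share of the unannotated rows ran from 12.5% on chromosome 12 to 28.2% on chromosome 8 among the nuclear chromosomes, none of the 11 mitochondrial rows was long, and chromosome X held 36 of them.

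Many long rows were versions of one another. When rows that overlap on the same chromosome and strand were joined into loci, the 1495 long rows fell into 1029 of 5820 loci. Only 549 long rows (36.7%) stood alone in their locus, against 4243 of the shorter rows (70.8%). Another long row shared the locus in 737 cases (49.3%), and 256 long rows (17.1%) had the same start, end and strand as another long row. The fullest locus held 12 long rows. Rows with the same ends can differ only in what lies between the ends, and StringTie, which gave the FPKM values, divides the reads of a region among its transcripts, so such rows are not independent of each other.

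Detection was taken as an FPKM (fragments mapped, scaled by the length of the transcript and the size of the library) above 0.1, the limit that the study used for lncRNAs. The table held only rows past this limit in at least 1 sample, so a row high in a single skin entered through that skin. In white skin, 842, 798 and 863 long rows were detected in pigs 1, 2 and 3. In black skin, the counts were 817, 825 and 739. The means were 834.3 ± 33.2 (SD, n = 3) and 793.7 ± 47.5 (SD, n = 3), and the skins overlapped (exact permutation test, two-sided, p = 0.4, where 3 samples against 3 cannot go below 0.1). The black sample of pig 3 had the fewest detected long rows and the most rows listed at 0 (633).

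The levels were low in both skins. The median FPKM of the long rows was 0.178, 0.140 and 0.213 in the white samples and 0.162, 0.169 and 0.0932 in the black samples, again with overlap (exact permutation test, two-sided, p = 0.4). Between 179 and 256 long rows passed 1 FPKM in a sample. Their FPKM summed to 1104 ± 106.2 (SD, n = 3) in the white samples and 1090.0 ± 64.6 (SD, n = 3) in the black ones, with p = 1 (two-sided exact permutation test). This was 8.82% ± 3.40 of the sum over all lncRNA rows in white and 12.7% ± 0.711 in black skin, lower in white skin in all 3 pigs (exact permutation test, two-sided, p = 0.2). The sum held 1 shorter row, TCONS_00077941, at 896.1, 2037 and 13478.5 FPKM in white and at 4.16, 92.7 and 3.77 in black skin. Without that row, a setting chosen after the values were seen, the share of the long rows was 12.4% ± 1.31 in white and 12.8% ± 0.658 in black skin (SD, n = 3), and the skins overlapped (exact permutation test, two-sided, p = 0.9). The highest shorter row had a mean of 2752 FPKM over the 6 samples, and the highest long row a mean of 90.5.

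**Figure D1:**
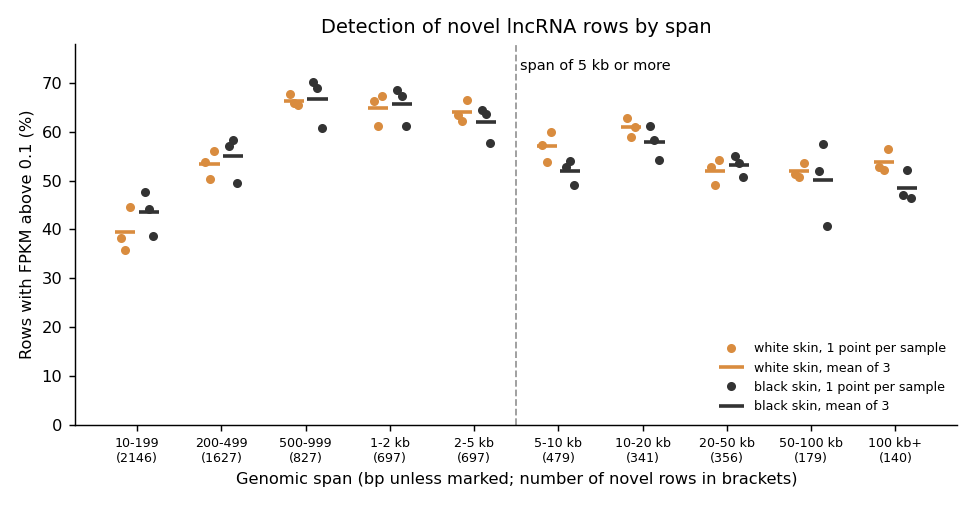
Share of unannotated rows with an FPKM above 0.1 (vertical axis, %) by genomic span (horizontal axis, number of rows in brackets), with 1 point per sample and lines for the mean of 3 samples of a skin. Rows of 500 bp to 5 kb were detected most often, rows under 200 bp least often, and the rows of 5 kb or more lay between them.

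Detection was highest at spans of 500 bp to 5 kb. Of the rows under 200 bp, 39.5% were detected on average in white and 43.5% in black skin. Rows of 500 bp to 1 kb reached 66.4% and 66.6%. Rows of 5 to 10 kb stood at 57.0% and 52.0%, those of 10 to 20 kb at 60.9% and 58.0%, and those of 100 kb or more at 53.8% and 48.6%. The plot of detection by span shows that the long rows lay below the rows of 500 bp to 5 kb and above those under 200 bp.

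Where the long rows stood against the shorter rows depended on which shorter rows were used. Against all shorter rows, the median of log2(FPKM + 0.1) was higher for the long rows by 0.26, 0.28 and 0.13 in the white samples. In the black samples the same difference was -0.23, -0.14 and -0.02. Over the 6 samples the mean difference was 0.05 ± 0.21 (SD, n = 6; exact sign-flip permutation test, two-sided, p = 0.594). Against the 3848 shorter rows of at least 200 bp, the long rows were lower in 6 of 6 samples, with a mean difference of -0.42 ± 0.15 on the same scale (SD, n = 6; exact sign-flip permutation test, two-sided, p = 0.03125, the smallest that 6 samples can give). The samples come from 3 pigs, and over 3 pig means no p below 0.25 is possible.

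The share of detected rows also depended on this choice. Long minus all shorter rows, it was 0.786 ± 2.70 percentage points (SD, n = 6; exact sign-flip permutation test, two-sided, p = 0.5). Long minus shorter rows of at least 200 bp, it was -6.00 ± 1.95 points (SD, n = 6; exact sign-flip permutation test, two-sided, p = 0.03125). Long rows were less often listed at exactly 0 than all shorter rows in 6 of 6 samples, by -4.39 ± 2.24 points (SD, n = 6; exact sign-flip permutation test, two-sided, p = 0.03125). This share was not compared with shorter rows of at least 200 bp, so its dependence on the choice is unknown.

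**Figure D2:**
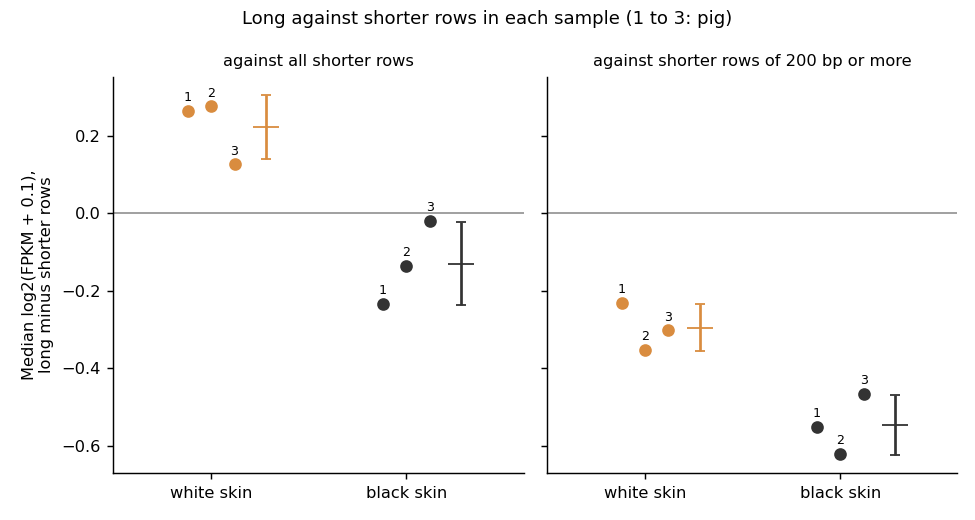
Median log2(FPKM + 0.1) of the long rows minus that of the shorter rows (vertical axis) in each sample (points, numbered by pig), with the mean and SD of each skin at the right of its points. Against all shorter rows the white samples lay above 0 and the black samples below it, and against shorter rows of at least 200 bp all 6 samples lay below 0.

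Detection of long rows was uneven between samples. Exactly 1 sample passed the limit for 361 long rows (24.1%), all 6 samples for 265 (17.7%), and 2 to 5 samples for the remaining 261, 216, 197 and 195. For the shorter rows, 27.2% passed in 1 sample and 19.8% in 6. Of the 361 rows, 95 (26.3%) were found in the black sample of pig 1 and 74 (20.5%) in the white sample of pig 3. The white samples of pigs 1 and 2 held 35 (9.70%) and 36 (9.97%). Among 1631 shorter rows found in 1 sample, the shares were near these, at 28.5%, 21.5%, 9.32% and 8.95% in the same order. The highest value among the 361 long rows was 4.58 FPKM, for TCONS_00025436 in the white sample of pig 3. TCONS_00107241 reached 3.91 in the white sample of pig 2, and TCONS_00051301 3.82 in the black sample of pig 1. The 5 other samples of TCONS_00025436 were listed at 0. In 17 long rows (1.14%), 1 sample had more than 5 FPKM and at least 1 other was at 0, and a listed 0 is therefore given as listed.

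Agreement between samples of the same skin was modest for single rows. Across the 1495 long rows, Pearson's r of log2(FPKM + 0.1) was 0.446 to 0.564 between 2 white samples, 0.409 to 0.517 between 2 black samples and 0.283 to 0.426 between a white and a black sample. The shorter rows gave mean values of 0.534, 0.440 and 0.412 for the same 3 kinds of pair, against 0.489, 0.456 and 0.379 for the long rows. Rows share libraries and, within a locus, reads, so these correlations are descriptions without a p. Among long rows with a mean of up to 1 FPKM, the mean r within a skin was at most 0.13 in each of 3 ranges of level (up to 0.1, 0.1 to 0.3 and 0.3 to 1 FPKM). The rows of such a range have similar means over the same samples, which by itself lowers r. These values therefore cannot be read as poor agreement at a low level. Among the 175 long rows above 1 FPKM, the mean r was 0.483 within white and 0.615 within black skin, and among the 796 shorter rows above 1 FPKM it was 0.479 and 0.407.

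Summing the FPKM of all rows of a locus raised the agreement. For 1007 unannotated loci with a long row, the mean r became 0.742 for pairs of white samples, 0.623 for pairs of black samples and 0.576 for mixed pairs. For the 4737 loci without a long row, it was 0.616, 0.508 and 0.489. The loci with a long row hold more rows each than the loci without one.

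**Figure D3:**
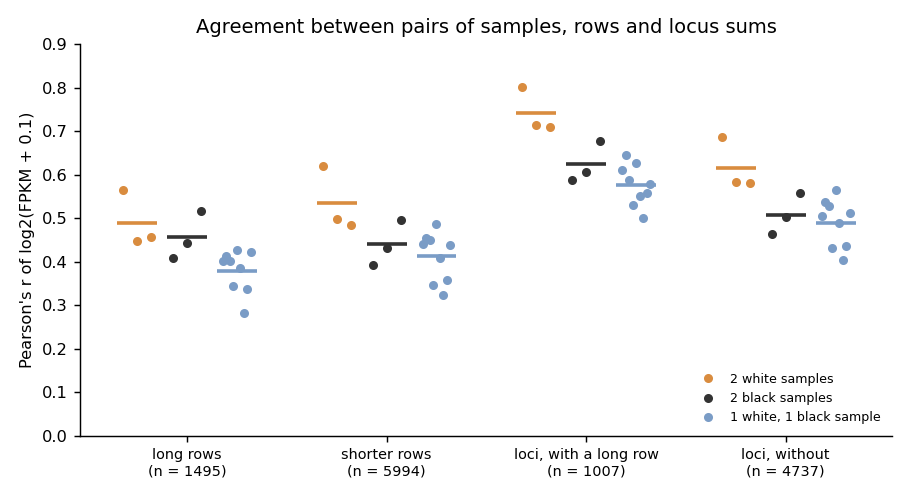
Pearson's r of log2(FPKM + 0.1) (vertical axis) for each pair of samples (points) with the mean of each kind of pair (lines), for single rows and for FPKM summed over loci, with n the number of rows or loci. The values of the long rows rose from 0.489 to 0.742 within white and from 0.456 to 0.623 within black skin when rows were summed.

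To find which long rows differed between the skins, white and black samples were compared with limma on log2(FPKM + 0.1) over all 7566 rows. Fold changes are given as white minus black. A row was called where it changed by more than 1 on the log2 scale in either direction, with a Benjamini-Hochberg adjusted p below 0.05. Of the long rows, 22 (1.47%) were called, where 1.33% of all rows were called. In white skin 18 were higher and 4 lower, where 1.08% and 0.251% of all rows were called in these directions. Of the shorter rows, 78 (1.301%) were called. The share of long rows called was near that of the whole table. The median log2 fold change was 0.01 over the long rows and -0.14 over all rows.

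With the pig as a block in the model, 49 long rows were called (3.28%, background 3.21%), of which 40 were higher in white skin (background 2.27%) and 9 lower (background 0.938%), and the 22 rows were among them. The blocked fit took its estimate of the spread wholly from other rows. At a p below 0.05 before adjustment and the same fold limit, 123 long rows (8.23%) passed, where 7.88% of all rows did, with 92 higher in white skin (background 5.17%) and 31 lower (background 2.71%). The 3 white values lay all above the 3 black values in 126 long rows (8.43%, background 6.87%) and all below them in 66 (4.41%, background 5.31%). The fit without the block drew most of its estimate of the spread from other rows, with 49.1 prior against 4 residual degrees of freedom. Without the white sample of pig 1, 2 or 3, the calls fell to 0, 1 and 2, and without the black sample of pig 1, 2 or 3, to 1, 0 and 0. Among the 5994 shorter rows, the calls in the same order were 0, 1, 3, 0, 0 and 1.

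**Figure D4:**
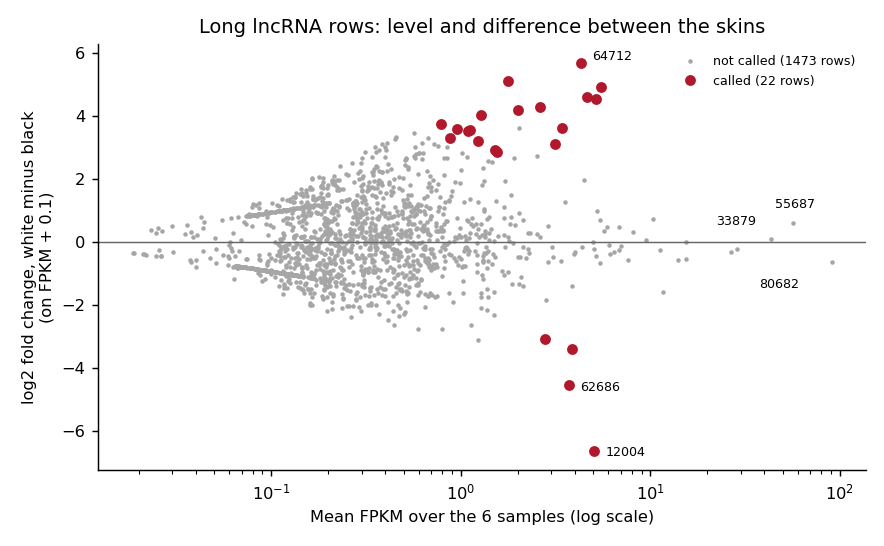
Mean FPKM over 6 samples (horizontal axis, log scale) and log2 fold change of white minus black skin on FPKM + 0.1 (vertical axis) for the 1495 long rows, with the 22 called rows in red and 6 rows marked by the last digits of their number. The 5 rows with the highest mean lay between -0.65 and 0.60, and for a row listed at 0 in every sample of a skin the height depends on the pseudocount of 0.1.

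Among the called rows, 20 of 22 had no overlap between the skins and the same direction in all 3 pigs. All 18 rows higher in white skin had a white mean above 1 FPKM, and 16 of them had a black mean under 0.5 FPKM. A value of 0 in at least 1 black sample was present in 14 called rows. The rows were called on these same values, so these counts describe the called rows and add no support to the calls. The 22 rows belonged to 19 loci, and 19 rows shared their locus with other rows. When FPKM was summed over the locus and the same fit was run on all loci, 19 of the 22 rows lay in a called locus.

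A pair of rows lay inside EML6, a gene for a microtubule-associated protein. TCONS_00064712 and TCONS_00064711 cover the same bases of Sscrofa11.1, chr3:86278406-86291311, on the plus strand. TCONS_00064712 was at 8.22, 10.1 and 7.37 FPKM in white skin and at 0.344, 0 and 0.00999 in black skin. TCONS_00064711 was at 6.59, 6.79 and 5.54 FPKM in white and at 0.433, 0.991 and 0.147 in black skin. In both rows every white value lay far above every black value. The log2 fold changes were 5.66 (SE 0.724, limma, Benjamini-Hochberg adjusted p = 5.36e-07) and 3.61 (SE 0.668, adjusted p = 0.000458). The RefSeq table used here gives no strand for genes, so sense and antisense cannot be told apart.

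A locus on chromosome 15 had no RefSeq gene within 100 kb. TCONS_00037811 (chr15:24005279-24016022, plus strand) was at 2.64, 4.42 and 3.60 FPKM in white skin and at 0, 0.0156 and 0 in black skin, and its log2 fold change was 5.09 (SE 0.823, limma, Benjamini-Hochberg adjusted p = 7.59e-05). TCONS_00037810, which starts at the same base, was at 1.50, 1.65 and 3.09 FPKM in white and 0.103, 0.202 and 0 in the black samples (log2 fold change 3.50, SE 0.834, adjusted p = 0.0110). The skins were far apart in both rows. Summed over its 9 rows, the locus stood at 10.3, 10.1 and 11.3 FPKM in white and at 0.841, 0.774 and 0 in black skin, a narrow range within white skin. The nearest gene was INSIG2, a regulator of sterol synthesis, 306 kb away, and its mRNA was at 8.67 ± 2.30 and 9.36 ± 3.18 FPKM (SD, n = 3) in white and black skin.

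Some called rows lay far from any annotated gene. Of 53 long rows without a RefSeq gene within 100 kb, 6 (11.3%) were called, all higher in white skin, beside 22 of all 1495. They lay in 5 loci. Besides the pair on chromosome 15, these were TCONS_00005878 (nearest gene GJA1, for the gap junction protein connexin 43, 119 kb away), TCONS_00013781 on chromosome 11, TCONS_00088032 (nearest gene TTLL7, a tubulin-modifying enzyme, 103 kb away) and TCONS_00102953 (nearest gene PCDH7, a protocadherin, 102 kb away). These genes were looked up after the calls were known, and no test was made of the share. The mRNAs of GJA1, TTLL7 and PCDH7 were not called.

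Some of these rows varied widely between the white samples. TCONS_00013781 (chr11:72687842-72694472, plus strand) was at 11.9, 0.616 and 18.1 FPKM in white and 0.509, 0 and 0.106 in the black samples (log2 fold change 4.53, SE 0.841, limma, Benjamini-Hochberg adjusted p = 0.000458). The white sample of pig 2 was near the highest black sample, and the nearest annotation was a pseudogene 343 kb away. TCONS_00088032 (chr6:129971484-129988763, plus strand) was at 0.528, 0.758 and 10.7 FPKM in white skin and listed at 0 in all black samples (limma, Benjamini-Hochberg adjusted p = 0.00994). TCONS_00102953 was at 4.71, 1.43 and 0.413 FPKM in white and at 0, 0.139 and 0 in black skin. TCONS_00005878 (chr1:40835431-40869715, minus strand) was at 0.885, 5.15 and 2.30 FPKM in white and 0.0635, 0.234 and 0.418 in black skin. In TCONS_00088032 most of the white level came from pig 3, and in TCONS_00102953 from pig 1.

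Chromosome 11 held 3 loci close to each other that were called on their summed FPKM, a stretch that was picked out after the values were seen. Beside the locus of TCONS_00013781, the locus at chr11:72581413-72595881 on the plus strand stood at 2.67, 4.79 and 2.45 FPKM in white and 0.0539, 0.544 and 0 in black skin. The locus at chr11:72706351-72740693 on the minus strand stood at 1.302, 1.52 and 3.16 FPKM in white and 0.388, 0.306 and 0 in black skin. All 3 were higher in white skin, and without the trend option none of them passed (limma on locus sums, Benjamini-Hochberg adjusted p = 0.0842 for the locus of TCONS_00013781, then 0.0618 and 0.213). TCONS_00013778, a row of the locus that starts at 72581413, was at 0.403, 1.55 and 1.46 FPKM in white skin and listed at 0 in black skin, and missed the limit on its own without the pig as a block (limma, Benjamini-Hochberg adjusted p = 0.0746 without and 0.00878 with the block).

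On chromosome 8, TCONS_00105901 (chr8:79840175-79845897, minus strand) lay inside LOC110262142, an annotated lncRNA gene. It was at 8.20, 16.1 and 2.58 FPKM in white and at 0.264, 0.622 and 0 in the black samples (log2 fold change 4.58, SE 0.740, limma, Benjamini-Hochberg adjusted p = 7.59e-05). Its locus held 14 rows, 8 of them long, and summed to 27.0, 61.3 and 21.0 FPKM in white against 0.634, 1.37 and 0.357 in black skin. This was the highest white mean among the called loci with a long row. That sum takes in shorter rows, some of which were called too, such as TCONS_00105904 (1056 bp, limma, Benjamini-Hochberg adjusted p = 0.000613). TCONS_00070461 (chr4:12817976-12826082, plus strand), inside the lncRNA gene LOC106509954, was at 13.5, 1.59 and 0.624 FPKM in white and 0.0333, 0.0386 and 0.0208 in the black samples (log2 fold change 4.29, SE 0.903, limma, Benjamini-Hochberg adjusted p = 0.00301).

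On chromosome X, TCONS_00119538 (chrX:78360511-78539989, minus strand), at 179479 bp the longest called row, was at 17.4, 15.7 and 0 FPKM in white skin and listed at 0 in black skin (limma, Benjamini-Hochberg adjusted p = 0.00515). TCONS_00119541, which ends at the same base, was at 2.01, 0 and 16.4 FPKM in white skin and 0, 1.61 and 1.37 in black skin. The third row, TCONS_00119540, was at 2.36, 2.98 and 3.09 FPKM in white and 0.358, 0.278 and 0.261 in black skin. Where the first row was at 0 in white skin, the second carried the level. Their sum was even, at 21.8, 18.7 and 19.5 FPKM in white and 0.358, 1.89 and 1.63 in black skin (log2 fold change 4.11, limma on locus sums, Benjamini-Hochberg adjusted p = 1.37e-11, and 0.0414 without the trend option). The only RefSeq genes it overlapped were 2 pseudogenes.

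The remaining rows higher in white skin lay in or beside genes. TCONS_00030543 (chr14:14645408-14658098, plus strand), inside FAM167A, was at 1.49, 3.66 and 2.38 FPKM in white and 0.131, 0.0492 and 0 in the black samples (log2 fold change 4.03, SE 0.833, limma, Benjamini-Hochberg adjusted p = 0.00238). The mRNA of FAM167A was at 3.03 ± 1.58 and 3.40 ± 0.407 FPKM (SD, n = 3) and was not called. TCONS_00099093 (chr7:4393348-4414713, minus strand), which overlaps the lncRNA gene LOC102165101, was at 2.60, 0.386 and 1.72 FPKM in white skin and listed at 0 in black skin (limma, Benjamini-Hochberg adjusted p = 0.0303). Both rows were apart between the skins in every pig.

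TCONS_00005791 (chr1:35816145-35860981, minus strand) overlaps ECHDC1, an enzyme that removes side products of fatty acid synthesis. It was at 3.14, 0.917 and 1.53 FPKM in white and at 0.111, 0 and 0.0528 in the black samples (log2 fold change 3.57, SE 0.880, limma, Benjamini-Hochberg adjusted p = 0.0161). The ECHDC1 mRNA moved in the same direction, from 76.3 ± 50.4 FPKM in black to 3756 ± 448.1 FPKM in white skin (SD, n = 3; limma, Benjamini-Hochberg adjusted p = 0.00780). TCONS_00075572 (chr4:97261203-97324926, minus strand) overlaps S100A10, a calcium-binding protein gene, and THEM5, a thioesterase gene. It was at 0.891, 1.41 and 4.78 FPKM in white and 0.120, 0.131 and 0.0909 in black skin, while neither mRNA was called (limma, Benjamini-Hochberg adjusted p = 0.0287 for the row, 0.0719 for S100A10 and 0.173 for THEM5). TCONS_00080265 (chr5:9132055-9139374, minus strand) was at 0.675, 1.31 and 3.04 FPKM in white and 0.252, 0 and 0 in black skin (limma, Benjamini-Hochberg adjusted p = 0.0475), and it lay 2.44 kb from an annotated lncRNA gene.

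TCONS_00023680 lay inside PPARG, the transcription factor that directs fat cell formation, at chr13:68326645-68340500 on the plus strand. It was at 7.56, 5.23 and 2.88 FPKM in white and 2.46, 0 and 0.659 in the black samples (log2 fold change 3.10, SE 0.761, limma, Benjamini-Hochberg adjusted p = 0.0159). The skins did not overlap, although the lowest white and the highest black value were close. Summed over the 4 rows of its locus, the difference was 1.56 (limma on locus sums, Benjamini-Hochberg adjusted p = 0.129 without and 0.0315 with the pig as a block), so that it passed with the block and not without it. The PPARG mRNA was at 18.9 ± 8.43 in white and 17.7 ± 15.2 FPKM in black skin (SD, n = 3; limma, Benjamini-Hochberg adjusted p = 0.714).

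**Figure D5:**
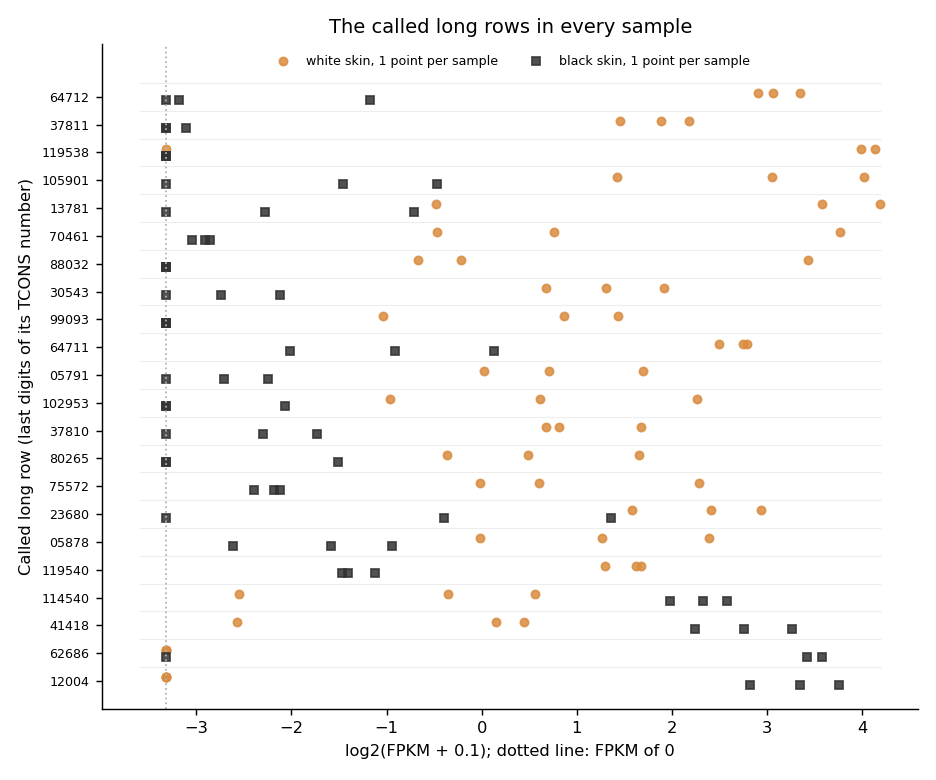
FPKM of the 22 called long rows as log2(FPKM + 0.1) (horizontal axis) in the 3 white samples (circles) and the 3 black samples (squares), ordered by log2 fold change. The dotted line marks an FPKM of 0, where at least 1 black sample lies in 14 rows.

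The 4 long rows lower in white skin were less uniform. TCONS_00012004 (chr10:24962726-24969062, minus strand), inside the protein-coding gene LOC102162336, was listed at 0 in the 3 white samples and at 13.4, 10.04 and 6.94 FPKM in the black samples (limma, Benjamini-Hochberg adjusted p = 8.51e-09). The known lncRNA row that covers it, ENSSSCG00000032301, was at 6.29, 4.60 and 7.53 FPKM in white and 1.64, 13.8 and 0.434 in black skin. In white skin only the known row carried a level. The locus sum was 6.29, 4.60 and 7.53 in white and 15.1, 23.8 and 7.37 in black skin, where the skins overlapped, and it did not pass (limma on locus sums, log2 fold change -1.19, Benjamini-Hochberg adjusted p = 0.353).

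TCONS_00041418 (chr15:87622776-87642511, minus strand) lay inside PDE1A, a phosphodiesterase that breaks down cyclic nucleotides. It was at 1.27, 0.0681 and 1.01 FPKM in white and 4.62, 6.67 and 9.49 in the black samples (log2 fold change -3.41, SE 0.690, limma, Benjamini-Hochberg adjusted p = 0.00171). It was the only row of its locus. The PDE1A mRNA was lower in white skin as well, at 2.36 ± 0.248 against 9.64 ± 3.42 FPKM (SD, n = 3; log2 fold change -1.76, limma, Benjamini-Hochberg adjusted p = 0.0260).

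TCONS_00114540 on the unplaced scaffold AEMK02000452.1 was at 0.0701, 1.37 and 0.680 FPKM in white and 4.91, 5.86 and 3.85 in the black samples (log2 fold change -3.08, SE 0.703, limma, Benjamini-Hochberg adjusted p = 0.00744). A second row with the same ends did not follow it, at 2.25, 0 and 2.48 in white and 2.02, 1.304 and 3.13 in black skin, and the locus sum missed the limit without the pig as a block (limma on locus sums, Benjamini-Hochberg adjusted p = 0.0787 without and 0.0166 with the block). TCONS_00062686 (chr3:25280426-25295347, plus strand) was listed at 0 in white skin and at 10.6, 0 and 11.8 FPKM in black skin, so its skins overlapped although it was called (limma, Benjamini-Hochberg adjusted p = 0.0106). It overlaps the ends of ACSM3, a fatty acid activating enzyme, and of THUMPD1, a tRNA modification protein. The ACSM3 mRNA moved the other way, at 89.4 ± 67.7 in white and 3.87 ± 2.87 FPKM in black skin (SD, n = 3; limma, Benjamini-Hochberg adjusted p = 0.0199). The THUMPD1 mRNA was not called, and was at 16.6 ± 1.49 in white and 12.8 ± 0.184 FPKM in black skin (SD, n = 3).

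The same comparison was made on loci, where the split of reads between rows bears less on the value. A locus sum takes in all rows of the locus, so a called locus can owe its call to a shorter row. Of 1029 loci with a long row, 44 (4.28%) were called on their summed FPKM, 41 higher and 3 lower in white skin, where 2.68% of all 5820 loci were called, 2.04% higher and 0.636% lower. Of loci without a long row, 112 (2.34%) were called. With the pig as a block, the counts were 66 (6.41%) and 174 (3.63%), with a background of 4.12% (2.96% higher and 1.17% lower in white skin). Without the trend option they were 11 and 13, with a background of 0.412% (0.378% higher and 0.0344% lower), and the fit without it is given because the fit with the trend took its estimate of the spread wholly from other loci. Without the black sample of pig 2 or pig 3, 1 and 2 loci with a long row were called, and without any other single sample none was. Of loci without a long row, 1 and 2 were called in those fits, and 0 or 1 in the others. In 28 of the 44 called loci no single long row had been called. In 41 the skins did not overlap, which was read from the same sums as the calls and adds no support to them. No test was made of the difference between the shares.

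Some long rows were apart between the skins without being called. TCONS_00043247 (chr16:51345513-51352001, plus strand), inside ERGIC1, a protein of the early secretory pathway, was at 0.706, 1.02 and 1.03 FPKM in white skin and listed at 0 in black skin (limma, Benjamini-Hochberg adjusted p = 0.0957). TCONS_00088035, with the same ends as TCONS_00088032, was at 0.229, 0.363 and 11.6 FPKM in white skin and listed at 0 in black skin. In the other direction, TCONS_00037987 inside CSMD1 was at 0.0634, 0 and 0.233 FPKM in white and 0.602, 3.22 and 0.657 in black skin. TCONS_00095565 was at 0, 0 and 0.122 FPKM in white and 0.393, 1.61 and 0.541 in black skin, and TCONS_00024162 at 0, 0 and 0.0526 in white and 0.371, 0.587 and 0.582 in black skin. The last 2 lay inside annotated lncRNA genes. With the pig as a block, TCONS_00043247, TCONS_00088035 and TCONS_00037987 passed the limit (limma, Benjamini-Hochberg adjusted p = 0.0158, 0.00399 and 0.0247).

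The long rows with the highest levels did not differ between the skins past the limit. TCONS_00080682 (chr5:17830332-17846328, minus strand), inside KRT6A, a keratin gene of hair follicles and wounded epidermis, was at 16.8, 47.6 and 190.4 FPKM in white and 55.6, 63.8 and 168.7 in black skin. It spread over a wide range within each skin, and the sample of pig 3 was the highest in both. TCONS_00033879 (chr14:141717708-141741462, plus strand) was the steadiest, at 48.0, 40.8 and 44.2 FPKM in white and 36.5, 43.9 and 45.9 in the black samples (log2 fold change 0.08, SE 0.556). It overlaps SYCE1, a gene of meiotic chromosome pairing, and an annotated lncRNA gene.

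TCONS_00119403 (chrX:59277356-59286736, minus strand), 47.0 kb from CHIC1, was at 20.8, 25.4 and 27.1 FPKM in white and 23.1, 58.9 and 17.4 in black skin. TCONS_00047576 on chromosome 17, which overlaps the lncRNA gene LOC100627949 and the protein-coding gene LOC110257391, was at 17.6, 20.6 and 33.7 FPKM in white and 30.8, 35.2 and 22.7 in black skin. In both rows the skins overlapped. The fifth, TCONS_00055687 (chr2:140444799-140471827, plus strand), overlaps the end of EGR1, an early response transcription factor. It was at 46.2, 12.6 and 44.4 FPKM in white and 88.7, 0.464 and 148.6 in black skin.

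The values of TCONS_00055687 ran beside those of the EGR1 mRNA, which was at 45.4, 12.1 and 44.6 FPKM in white and 87.7, 139.1 and 153.1 in black skin. In 5 samples the row and the mRNA differed by 20% or less, and in the black sample of pig 2 the row was at 0.464. Of 453 long rows that overlap a protein-coding gene with a matched mRNA, this was the 1 row (0.221%) with such closeness in at least 4 samples, against 0.196% of 1530 shorter rows. This comparison was chosen after the values were seen.

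The longest rows were expressed at a low level. TCONS_00104129 (chr8:110555988-111350604, plus strand), of 794617 bp, lay within the lncRNA gene LOC102158976 and was at 0, 0.167 and 0 FPKM in white and 0.333, 0.585 and 0.530 in black skin. Its skins did not overlap, but it missed the limit (log2 fold change -2.04, SE 1.05, limma, Benjamini-Hochberg adjusted p = 0.664). TCONS_00083167 (558665 bp), which overlaps CDYL2, passed 0.1 FPKM in 2 samples, with 0.251 in the white and 0.687 in the black sample of pig 2. TCONS_00111831 (481521 bp), inside MTERF1, a mitochondrial transcription factor gene, was at 0.270 to 0.618 FPKM in white and 0.343 to 0.713 in black skin. TCONS_00005635 (455754 bp) was at 0.599 and 0.657 FPKM in the white samples of pigs 1 and 2 and at 0 in the 4 others. TCONS_00023425 (403726 bp), inside CNTN4, a neural adhesion protein gene, was at 0.283 to 0.822 FPKM in white and 0 to 0.514 in black skin.

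By their RefSeq context, 631 long rows (42.2%) overlapped a protein-coding gene and 520 (34.8%) an annotated lncRNA gene without a protein-coding one. Another 31 overlapped other genes only, 238 had a gene within 100 kb, 53 had none, and 22 lay on scaffolds without RefSeq positions in the table. The shorter rows overlapped a protein-coding gene in 36.5% and a lncRNA gene only in 22.0%. The share of long rows overlapping a protein-coding gene was also read by range of span. In ranges starting at 5000, 10000, 20000, 50000 and 100000 bp, it was 37.0%, 43.1%, 43.5%, 49.2% and 45.7%. Whether the length of the span accounts for the overlap with genes was not tested. Rows that overlapped a protein-coding gene had a median FPKM of 0.331 over their means, against 0.208 for rows with a gene within 100 kb and no overlap. They were detected in all 6 samples in 23.9% and 11.8% of cases.

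Long rows within 100 kb of genes of skin color, body position and skin tissue were counted. Of the HOX genes, which set position along the body, 36 had a position in the RefSeq table, and no long row lay within 100 kb of them. Of 18 pigment cell genes, SLC24A5 and TRPM1 each had 1 long row, at a mean of up to 0.145 FPKM, and neither was called. Of 20 fat metabolism genes, 5 besides PPARG had 1 long row each within 100 kb. Of the 7 rows only TCONS_00023680 was called, where 1.33% of all rows were called. The median log2 fold change of the 7 rows was 0.27, beside -0.14 over all rows.

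Of 20 genes listed as other position factors, which include the growth regulator MYC, the genes EGR2, IRX2, FOXD1, MYC, IRX5 and TWIST1 had 14 long rows, with a median log2 fold change of 0.74 and none called. TCONS_00032227, near EGR2, was at 1.83 ± 0.869 in white and 0.208 ± 0.1996 FPKM in black skin (SD, n = 3) and passed only with the pig as a block (limma, Benjamini-Hochberg adjusted p = 0.0749 without and 0.00516 with the block). TCONS_00054746, near FOXD1, a factor of dermal fibroblast lineages, did not overlap between the skins, at 0.846 ± 0.639 and 0.101 ± 0.0707 FPKM (SD, n = 3), and was not called. Its locus (limma on locus sums, Benjamini-Hochberg adjusted p = 0.00847) and that of TCONS_00032227 (0.0307) were called on their sums, but not without the trend option (0.213 and 0.476). TCONS_00112077, near TWIST1, a mesenchymal transcription factor, was apart in the other direction, at 1.12 ± 0.593 in white and 2.26 ± 0.383 FPKM in black skin (SD, n = 3), and was not called. The 3 long rows near dermal matrix genes, the 3 near keratins and the 1 near a muscle gene were not called. With 1.33% of all rows called, lists of so few long rows cannot show more or fewer calls. None of the 4 lncRNAs that the study named in its text is among the long rows.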

How the data were processed

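Polyadenylated RNA of 6 skin samples (white back and black buttock skin of 3 pigs) was sequenced in the study. The authors aligned the reads to Sus scrofa 11.1 with Ensembl release 90 annotation (the paper names TopHat, the submitters' notes HISAT2 2.0.4), assembled transcripts with StringTie 1.3.3, removed those with coding potential, and deposited FPKM values per transcript, keeping lncRNAs above 0.1 FPKM in at least 1 sample. The study reports the reads obtained per sample, but no read counts per row were used here. No counting interval is therefore given, and precision rests on 3 samples per skin.

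Span was taken as end minus start plus 1. The skins were compared in limma 3.58.1 (R 4.3.3; trend option, Benjamini-Hochberg adjustment over all 7566 rows) on log2(FPKM + 0.1), and for mRNAs on log2(FPKM + 0.5). Sums per sample were compared with exact permutation tests in SciPy 1.17.1. The fit was also run on simulated data with normally distributed noise, where changes were planted only in rows of a higher level. That run does not bear on rows at a low level, and no result is drawn from it. Gene names and positions came from RefSeq tables (Sscrofa11.1), and 12236 of 14900 mRNA identifiers had a symbol. Rows named in the text were up to 8 called rows in each direction with the largest fold change, the 5 highest, the 5 longest, 3 uncalled non-overlapping rows in each direction, 3 rows detected in 1 sample and the rows nearest the span limit, and other called rows were named after their values were seen. The members and gene lists were chosen with earlier results of these data known. The 2 samples that share a number in their names were read as coming from the same pig, so the pig was used as a block in the second fit. The deviations of the 2 samples of a pig from their group means correlated at 0.0908, 0.0871 and 0.141 over the long rows. Alternatives were the scaling, pseudocount, filter, trend option, span limit, locus sums and leaving out each sample.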

Additional observations from a re-analysis of the deposited data

Results flagged for a closer look

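The position of the long rows against all shorter rows differed in sign between the skins. The median log2(FPKM + 0.1) of long minus shorter rows was 0.22 ± 0.08 (SD, n = 3) in white and -0.13 ± 0.11 (SD, n = 3) in black skin, a difference of 0.35 between the skins (two-sided exact permutation test, p = 0.1, and no smaller p is possible with 3 samples against 3). All 3 white samples were above 0 and all 3 black samples below it. A result was flagged here only where it showed this split, so the split and the p of 0.1 follow from the rule and add no support.

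The share of detected rows showed the same split. Long minus shorter rows, it was 3.03 ± 0.921 percentage points in white and -1.46 ± 1.50 points in black skin (SD, n = 3), a difference of 4.48 points (exact permutation test, two-sided, p = 0.1). Against shorter rows of at least 200 bp, both skins were below 0, and the differences between the skins were 0.25 on the log2 scale and 3.22 points (exact permutation tests, two-sided, p = 0.1 for each). The cause was not tested.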

How the results depend on the processing

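The number of called long rows (22) depended on the fit. It was 49 with the pig as a replicate block, 7 and 5 with pseudocounts of 0.01 and 1, 7 when an FPKM above 0.1 in 3 samples was required, 3 without the trend option (0.468%, 0.334%, 0.802% and 0.201% of the long rows, against 0.384%, 0.234%, 0.686% and 0.150% of the shorter rows), 123 before adjustment, and 0 to 2 with a sample left out. On locus sums, an alternative added after the data were seen, 44 loci were called, 66 with the replicate block and 11 without the trend. Other scalings, the filter on the mean, a limit of 10000 bp and 1 row per cluster gave 16 to 20. Upper-quartile scaling, quantile normalization and the filter called 1.34%, 1.20% and 1.29% of the long rows. Of the shorter rows, they called 1.28%, 1.18% and 1.21%. No called row reversed its direction when a sample was left out, or with the other scalings or locus sums. The rows were called for large differences on these same values, so this adds no support to the calls. The block leaves each fold change as it is, so no direction could change with it.

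The share of detected rows, long minus shorter (0.786 points), was 4.39 at an FPKM above 0, -0.787 above 0.5 and -6.00 against shorter rows of at least 200 bp, and 0.213 to 1.56 with a sample left out. The median log2 difference (0.05) was -0.0265 over detected rows, -0.42 against shorter rows of at least 200 bp, and -0.000114 to 0.10 with a sample left out, where the lowest value was without the white sample of pig 2. Over pig means, which pair the samples, both differences had p = 0.25 (exact sign-flip permutation test).

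The correlation within a skin over long rows (0.473) was 0.625 with a pseudocount of 1, 0.387 as Spearman's rho and 0.683 on locus sums. In rising ranges of mean FPKM, where holding the means of the rows close by itself lowers r, it was -0.148, -0.0705, 0.0841 and 0.549. For shorter rows (0.487) it was 0.616 with a pseudocount of 1, and -0.184, -0.0539, 0.133 and 0.443 in the same ranges. The differences in detected rows and in median FPKM between the skins each had p = 0.4 (exact permutation tests, two-sided), so no difference was shown. Their direction stayed the same under each alternative, and the block could not have changed it. The cause of these changes was not tested, and the number of reads behind a low FPKM is unknown.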

Other observations

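On chromosome 13, a pair of loci with long rows on opposite strands, picked out after the values were seen, were both called higher in white skin on their summed FPKM. The locus at chr13:130850203-130858170 on the minus strand stood at 1.79, 2.72 and 1.97 FPKM in white and 0.303, 0 and 0 in black skin. The locus at chr13:130874823-130880762 on the plus strand stood at 1.10, 0.353 and 4.59 FPKM in white and 0.146, 0.0835 and 0.0753 in black skin. Neither passed without the trend option (limma on locus sums, Benjamini-Hochberg adjusted p = 0.0607 and 0.272).

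TCONS_00025436 was listed above 0 in the white sample of pig 3 only, while its locus on chromosome 13, with 1 more row, stood at 0.603, 1.75 and 12.4 FPKM in white and 0.164, 0.368 and 0.107 in black skin (limma on locus sums, Benjamini-Hochberg adjusted p = 0.00180, and 0.249 without the trend option).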
